A study of Saccharomyces cerevisiae with 12 samples.

Results

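The nuclear RNA polymerases of budding yeast are described here through the transcripts of the 31 genes that encode their subunits, taken by systematic name from the 6607 distinct identifiers of the deposited table. They comprise 7 subunits found only in polymerase I, namely RPA190 (YOR341W), RPA135 (YPR010C), RPA49 (YNL248C), RPA43 (YOR340C), RPA34 (YJL148W), RPA14 (YDR156W) and RPA12 (YJR063W). Another 7 are found only in polymerase II, namely RPO21 (YDL140C), RPB2 (YOR151C), RPB3 (YIL021W), RPB4 (YJL140W), RPB7 (YDR404C), RPB9 (YGL070C) and RPB11 (YOL005C). A further 10 are found only in polymerase III, namely RPO31 (YOR116C), RET1 (YOR207C), RPC82 (YPR190C), RPC53 (YDL150W), RPC37 (YKR025W), RPC34 (YNR003C), RPC31 (YNL151C), RPC25 (YKL144C), RPC17 (YJL011C) and RPC11 (YDR045C). RPC40 (YPR110C) and RPC19 (YNL113W) are shared by polymerases I and III, and RPB5 (YBR154C), RPO26 (YPR187W), RPB8 (YOR224C), RPB10 (YOR210W) and RPC10 (YHR143W-A) are common to all of them. All 31 were in the table and passed the filter on low values (a mean of at least 10 normalized counts over the 12 libraries). The rule that chose them went by name, but earlier results of these data were known when the subunits and their classes were chosen.

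RNA polymerase I makes the large ribosomal RNA precursor, polymerase II makes messenger RNA, and polymerase III makes transfer RNA, 5S ribosomal RNA and other small RNAs. Each enzyme is built around a pair of very large subunits that form the active centre, to which small assembly, common, stalk and zinc-ribbon subunits are added in fixed stoichiometry. The complexes therefore bring together some of the longest and some of the shortest protein-coding genes of the yeast genome. All of these subunit mRNAs are themselves made by polymerase II.

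The study captured RNA with NAD+ in place of the usual 5′ cap. Total RNA of BY4742, an alpha-mating-type laboratory strain with deletions in HIS3, LEU2, LYS2 and URA3, was incubated with the alkyne 4-pentynol and ADP-ribosylcyclase (ADPRC), an enzyme that swaps the nicotinamide of NAD for the alkyne, or was mock-treated as a control. The alkyne was biotinylated, streptavidin beads took up the tagged RNA, and libraries were made on the beads; rRNA had not been removed and the RNA had not been fragmented. Cells had grown to mid-log phase in minimal medium (yeast nitrogen base, complete amino acids and 2% dextrose) or in rich YEPD medium with 2% dextrose, so that mock and ADPRC libraries in each medium made 4 groups of 3.

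Library totals ranged from 3246900 to 3937618 reads for minimal mock and from 6727168 to 7959385 for minimal ADPRC. For YEPD they ranged from 11700161 to 13820148 (mock) and from 12051316 to 13958188 (ADPRC), and no subunit had fewer than 10 reads in any library. LEU2, LYS2 and URA3 were at 0 in every library, HIS3 lay between 89.5 and 238 normalized counts, the alpha-factor gene MF(ALPHA)1 was at 2271 or more, and the a-factor genes MFA1 and MFA2 stayed at or below 5.09. Other a-cell genes were higher: STE2 reached 15.5, BAR1 reached 32.8, and STE6 lay between 30.1 and 76.7. Open reading frames annotated within the ribosomal DNA took 50.7% to 54.7% of reads in mock and 30.9% to 33.2% in ADPRC libraries from minimal medium. The same share was 78.7% to 80.9% in mock and 64.8% to 79.5% in ADPRC libraries from YEPD. A subset of these frames with systematic names beginning YLR154W took 0.0224% to 0.0392% of reads in minimal mock and 54.3% to 55.2% in YEPD mock libraries. The subunit genes together took 0.216% to 0.252% of reads in minimal mock and 0.110% to 0.132% in YEPD mock libraries. The labels do not say whether replicates came from separate cultures, and the errors and p-values below measure the spread between these libraries, which may be technical. The column of 1 YEPD ADPRC library carries no replicate number, and that library is called unnumbered. YEPD ADPRC replicate 2 stood apart from the other two libraries of its group in many subunits, so counts of calls that rest on that group are also given without it.

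Mock libraries, too, were made from RNA on streptavidin beads, so their values need not follow the levels in total RNA. Per kilobase of length, with introns counted, the most abundant subunit transcript in mock libraries was RPB8, a small subunit common to all 3 enzymes. It was at 847 normalized counts per kb in minimal medium and 872 in YEPD. It was followed by RPO21, which encodes the largest polymerase II subunit, at 699 and 845, and by RPA135, the second-largest polymerase I subunit, at 523 and 658. The least abundant was RPC17, a stalk subunit of polymerase III, at 51.4 and 49.5. The 10 polymerase III-specific genes had a median of 124 normalized counts per kb in minimal mock libraries, against 253 for the polymerase I-specific, 282 for the polymerase II-specific and 361 for the common subunits. In YEPD mock libraries the same medians were 134, 286, 302 and 437. The medians of the common subunits, 361 and 437, were the values of RPO26, whose length without introns was not examined. Polymerase III transcripts were thus the lowest of these 4 sets in mock libraries of both media, although the sets overlapped: RPO31, the largest polymerase III subunit, was at 171 per kb in minimal mock libraries while RPB9 of polymerase II was at 122.

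To find which subunit mRNAs were captured through the enzyme, ADPRC libraries were compared with mock libraries. In minimal medium the 6 catalytic subunits of all 3 enzymes fell and the 3 zinc-ribbon subunits of all 3 enzymes rose. In all, 10 of 31 subunit genes rose, against 14.2% of all 5490 tested genes, and 6 of 31 fell, against 14.6% (limma, adjusted p under 0.05). The median log2 change of the subunit genes was 0.09, beside 0.01 for all tested genes. In 13 subunit genes every ADPRC library lay above every mock library (27.5% of all tested genes) and in 6 every one lay below (27.3%). All log2 changes are differences of log2(value + 1), which understates changes of low genes. They depend on the authors' normalization: with the same total given to each library, the median of all tested genes moved to 0.44 in minimal medium and to 0.18 in YEPD, 20 subunit genes rose in minimal medium (45.3% of all tested genes) and none fell (0.893%).

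**Figure D1:**
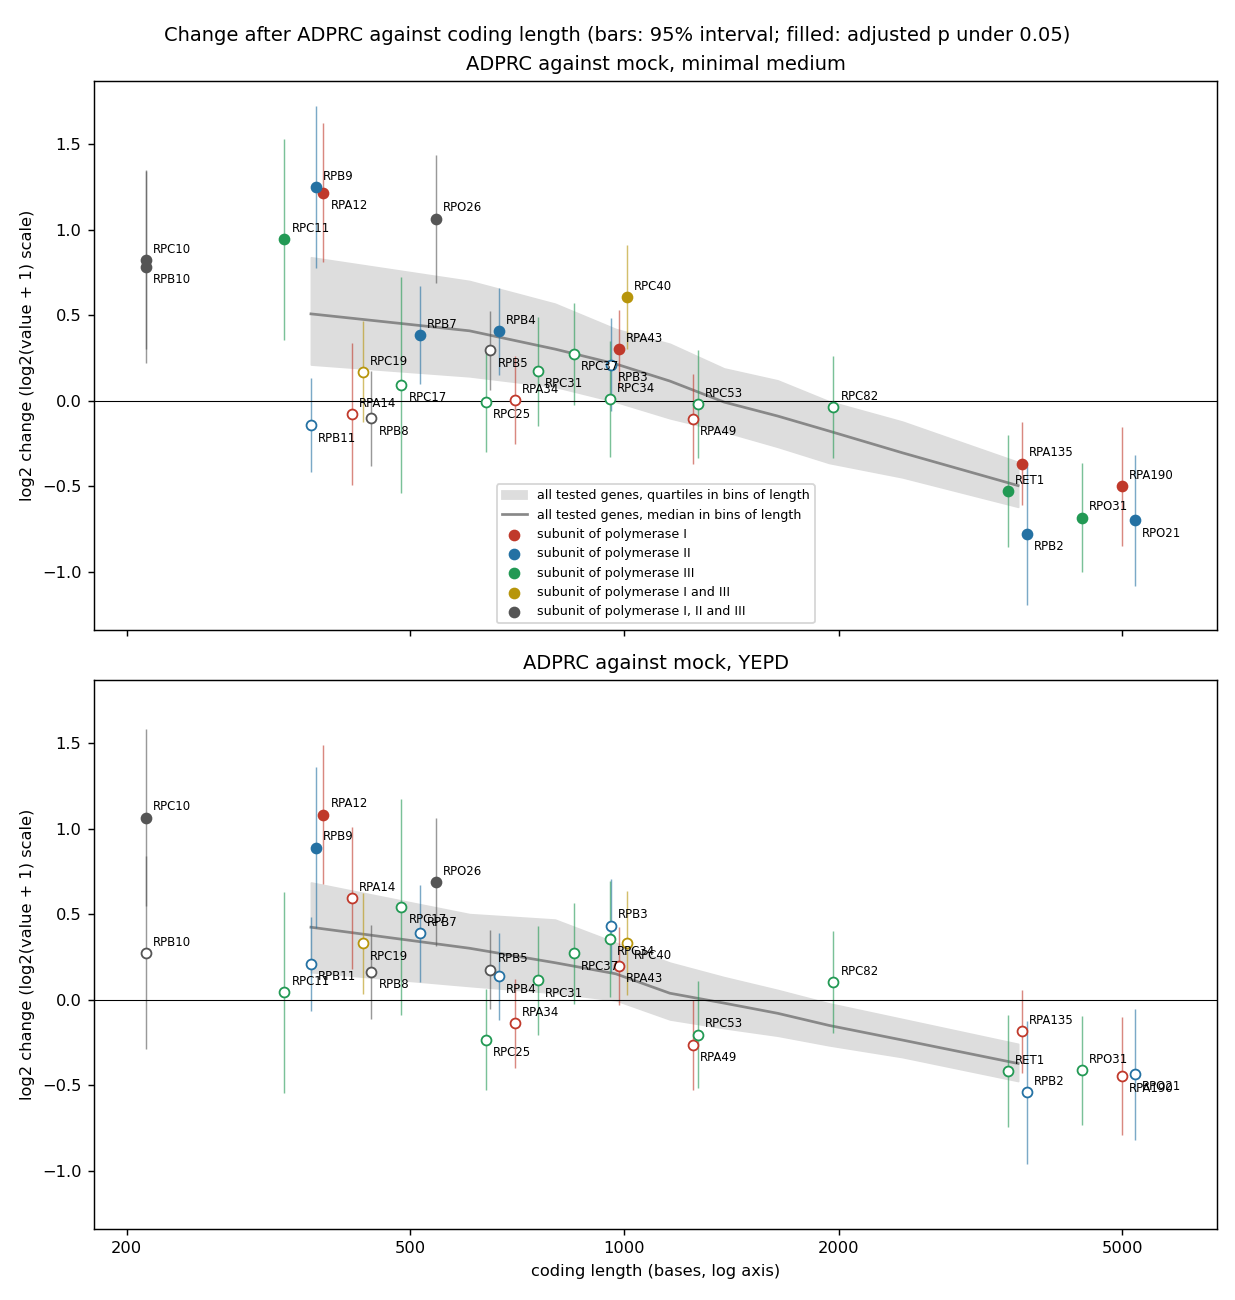
Log2 change after ADPRC (vertical axis) against coding length in bases (horizontal log axis) for the 31 subunit genes, in minimal medium (top) and YEPD (bottom); bars are 95% intervals, filled points passed the test, colour marks the enzyme, and the grey line and band are the median and quartiles of all tested genes in bins of length. In minimal medium RPA190, RPA135 and RET1 lie within the quartiles of the longest bin, and RPB2, RPO21 and RPO31 below them. RPB9, RPA12, RPO26, RPC11 and RPC40 lie above the quartiles of their bins. RPB8, RPB11, RPA14, RPC17, RPC19, RPC25 and RPA34 lie below the quartiles of theirs, as does RPA49 by a small margin. With the same total per library no long gene is called lower, RPA135 turns to a log2 change of 0.07 and RPC82 is called higher (0.39).

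The largest subunit of each enzyme carries most of the active site. RPA190, the largest polymerase I subunit, had 1631, 1716 and 1697 normalized counts in minimal mock replicates 1, 2 and 3 and 1178, 1153 and 1230 in ADPRC replicates 1, 2 and 3. RPO21 of polymerase II had 3582, 4038 and 3296 in mock and 2140, 2195 and 2363 in ADPRC libraries, and RPO31 of polymerase III had 754, 784 and 711 in mock and 458, 450 and 489 in ADPRC libraries. In each of these genes all ADPRC libraries were below all mock libraries. The log2 changes were -0.50 ± 0.16 (SE) for RPA190, -0.70 ± 0.18 for RPO21 and -0.69 ± 0.15 for RPO31, with limma adjusted p of 0.0339, 0.0147 and 0.00796. RPO31 passed whichever library was left out. The call of RPO21 ended without minimal mock replicate 2 or minimal ADPRC replicate 1 or 2 (limma adjusted p from 0.0546 to 0.06), and that of RPA190 without any minimal library (0.0685 to 0.101) and without YEPD mock replicate 2 or 3 (0.05).

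The second-largest subunits complete the active centre and showed the same pattern. RPA135 of polymerase I had 1859, 1994 and 1813 normalized counts in minimal mock and 1403, 1391 and 1598 in ADPRC libraries. RPB2 of polymerase II had 1264, 1360 and 1273 in mock and 747, 690 and 841 in ADPRC libraries, and RET1 of polymerase III had 436, 453 and 372 in mock and 281, 275 and 316 in ADPRC libraries. Again no ADPRC library reached the level of any mock library. The log2 changes were -0.37 ± 0.11 (SE) for RPA135, -0.78 ± 0.19 for RPB2 and -0.53 ± 0.15 for RET1, with limma adjusted p of 0.0281, 0.0136 and 0.0233. These calls rested on single libraries: RPB2 was lost without minimal mock replicate 2 (limma adjusted p = 0.0505) or minimal ADPRC replicate 2 (0.0602), RET1 without replicate 1 or 2 of either minimal group (0.0714 to 0.0845), and RPA135 without any minimal mock library or minimal ADPRC replicate 1 or 2 (0.0548 to 0.101).

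The ratio within the large pair of an enzyme was followed as well. Per kilobase, RPB2 stood to RPO21 as 0.508 ± 0.0357 (SD, n = 3) in mock and 0.481 ± 0.0313 in ADPRC libraries from minimal medium, and as 0.499 ± 0.0014 and 0.464 ± 0.0285 in those from YEPD. RET1 stood to RPO31 as 0.711 ± 0.0397 and 0.792 ± 0.0253 in minimal mock and ADPRC libraries, and as 0.759 ± 0.0266 and 0.756 ± 0.0149 in YEPD mock and ADPRC libraries. RPA135 stood to RPA190 as 1.55 ± 0.0675 and 1.70 ± 0.0804 in mock and ADPRC libraries from minimal medium, and as 1.23 ± 0.0317 and 1.49 ± 0.258 in those from YEPD, without overlap in either medium. The mock and ADPRC ranges of RPB2 to RPO21 overlapped in minimal medium and not in YEPD, and those of RET1 to RPO31 overlapped in YEPD and not in minimal medium.

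The zinc-ribbon subunits RPA12, RPB9 and RPC11 sit near the active site and take part in cleavage of the nascent RNA or in transcript fidelity. RPA12 of polymerase I had 75.9, 89.8 and 68.0 normalized counts in minimal mock replicates 1, 2 and 3 and 156, 186 and 205 in ADPRC libraries. RPB9 of polymerase II had 45.2, 47.0 and 43.0 in mock and 117, 115 and 95.7 in ADPRC libraries, and RPC11 of polymerase III had 34.4, 22.8 and 17.9 in mock and 46.3, 44.2 and 51.9 in ADPRC libraries. All ADPRC libraries were above all mock libraries in each gene. The log2 changes were 1.22 ± 0.19 (SE) for RPA12, 1.25 ± 0.22 for RPB9 and 0.94 ± 0.27 for RPC11, with limma adjusted p of 0.00156, 0.00277 and 0.0236. RPA12 and RPB9 passed whichever library was left out. RPC11 did not pass without minimal mock replicate 2 or 3 or any minimal ADPRC library (limma adjusted p from 0.0644 to 0.0837).

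In minimal medium the small and the largest subunit of an enzyme thus moved apart. Per kilobase, RPA12 stood to RPA190 as 0.612 ± 0.0809 (SD, n = 3) in mock and 2.03 ± 0.244 in ADPRC libraries from minimal medium, RPB9 to RPO21 as 0.175 ± 0.010 and 0.692 ± 0.106, and RPC11 to RPO31 as 0.438 ± 0.142 and 1.34 ± 0.0525. The ranges of the mock and ADPRC libraries did not overlap in any of these ratios in minimal medium. In YEPD the ratio of RPA12 to RPA190 was 0.510 ± 0.0636 in mock libraries and 1.54 (unnumbered), 2.49 (replicate 2) and 0.835 (replicate 3) in ADPRC libraries. That of RPB9 to RPO21 was 0.167 ± 0.0146 in mock and 0.330, 0.941 and 0.241 in the same ADPRC libraries, with replicate 2 far above the other two. That of RPC11 to RPO31 was 0.455 ± 0.0360 in YEPD mock and 0.552, 1.27 and 0.343 in the ADPRC libraries, which lay on both sides of mock.

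**Figure D2:**
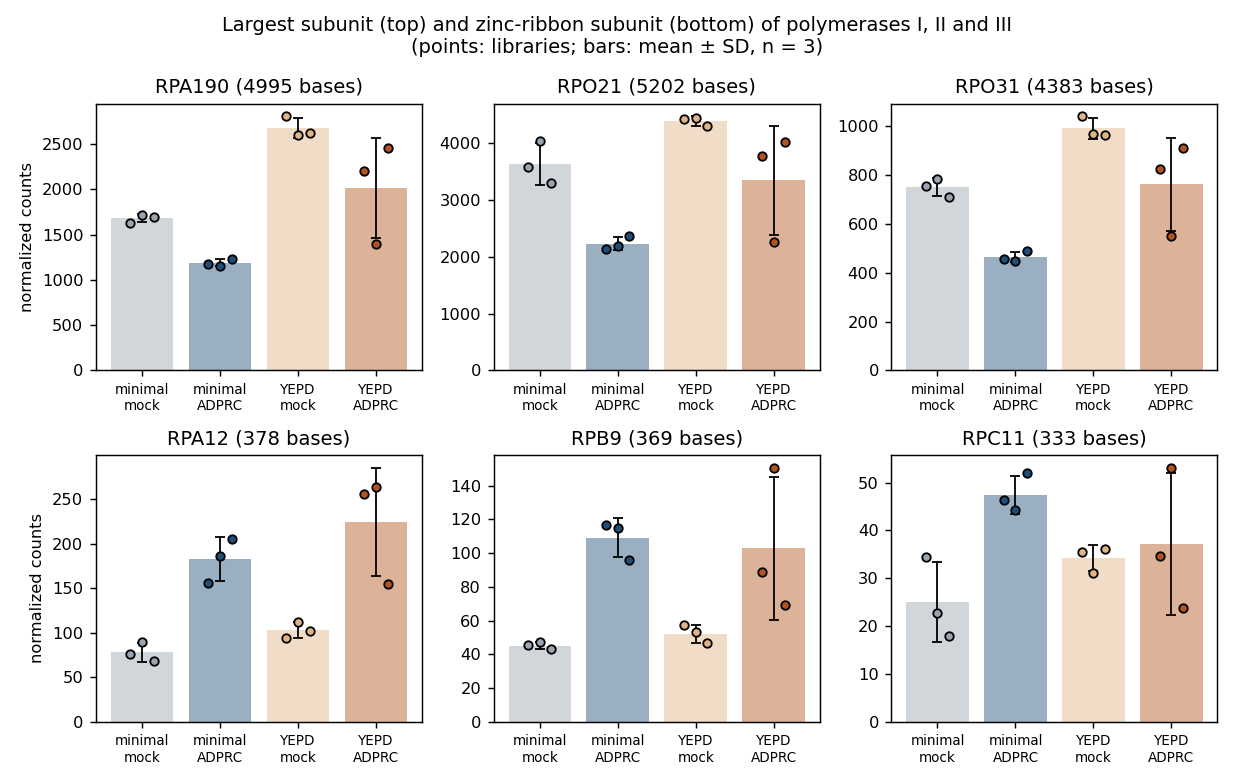
Normalized counts (linear vertical axis from 0) of the largest subunit (top row: RPA190, RPO21, RPO31) and the zinc-ribbon subunit (bottom row: RPA12, RPB9, RPC11) of polymerases I, II and III in the 4 groups; points are libraries and bars are mean ± SD, n = 3. In minimal medium the ADPRC points lie below the mock points in the top row and above them in the bottom row.

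Among the subunits common to all 3 enzymes, 3 of 5 rose in minimal medium. RPO26, which helps join the largest subunit to the rest of the enzyme, had 192, 207 and 192 normalized counts in mock and 412, 425 and 400 in ADPRC libraries, a log2 change of 1.06 ± 0.17 (SE; limma adjusted p = 0.00221) that passed whichever library was left out. RPC10, a very small zinc-binding subunit, had 52.4, 58.4 and 51.9 in mock and 93.7, 101 and 95.7 in ADPRC libraries (log2 change 0.82 ± 0.24, limma adjusted p = 0.0246). RPB10, another very small zinc-binding subunit, had 99.4, 88.4 and 120 in mock and 174, 190 and 164 in ADPRC libraries (log2 change 0.78 ± 0.26, limma adjusted p = 0.0402). The groups did not overlap in any of the 3 genes. Both very small subunits failed the test without any single minimal library (limma adjusted p from 0.0554 to 0.128), and RPB10 also without any single YEPD mock library (0.0568 to 0.057). RPB5 (0.29, limma adjusted p = 0.0545) and RPB8 (-0.10, 0.557) did not pass.

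The assembly subunits form the heterodimer on which each enzyme is built. RPC40, shared by polymerases I and III, had 389, 408 and 460 normalized counts in minimal mock and 617, 601 and 695 in ADPRC libraries, without overlap. Its log2 change of 0.61 ± 0.14 (SE; limma adjusted p = 0.011) held without any single library. Its partner RPC19 (0.17, limma adjusted p = 0.366) and the corresponding polymerase II pair RPB3 (0.21, 0.22) and RPB11 (-0.14, 0.407) did not pass.

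The stalk binds the emerging transcript and, in polymerase I, the initiation factor RRN3. Of the 6 stalk subunits, 3 rose in minimal medium. RPB4 of polymerase II had 159, 137 and 150 normalized counts in mock and 198, 186 and 208 in ADPRC libraries (log2 change 0.41 ± 0.12 SE, limma adjusted p = 0.0239). Its partner RPB7 had 163, 147 and 127 in mock and 184, 171 and 214 in ADPRC libraries (0.38 ± 0.13, limma adjusted p = 0.046), and RPA43 of polymerase I had 226, 210 and 213 in mock and 274, 251 and 276 in ADPRC libraries (0.30 ± 0.11, limma adjusted p = 0.0476). In each of these genes the ADPRC libraries lay above the mock libraries, by small margins. RPB4 failed the test without minimal mock replicate 2 or 3 or any minimal ADPRC library (limma adjusted p from 0.054 to 0.0879). RPB7 failed without the same libraries (0.0657 to 0.162) or any YEPD mock library (0.0586 to 0.0611), and RPA43 without any minimal library (0.0746 to 0.135) or any YEPD mock library (0.0625 to 0.064). The log2 changes of RPA14, RPC25 and RPC17 lay between -0.08 and 0.09 and did not pass.

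None of the 7 subunits related to general transcription factors passed in minimal medium, where 14.2% of all tested genes rose and 14.6% fell. The TFIIF-like subunits RPA49 and RPA34 of polymerase I and RPC53 and RPC37 of polymerase III had log2 changes from -0.11 to 0.27. The TFIIE-like subunits RPC82, RPC34 and RPC31, found in polymerase III, had log2 changes from -0.04 to 0.17. RPC82, at 1965 bases, was the only gene over 1500 bases among the 31 that did not fall: it had 248, 220 and 281 normalized counts in mock and 235, 222 and 271 in ADPRC libraries.

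In YEPD, 4 of 31 subunit genes rose after ADPRC, against 4.92% of all tested genes, and 0 fell, against 0.546%. Without adjustment 5 subunit genes and 755 of 5490 tested genes were lower at p under 0.05. EdgeR and TMM, here and below, were run without YEPD mock replicate 2. EdgeR on recovered reads called 1 subunit gene (RPA12) and 131 genes in all higher, and 0 and 3 lower. Limma without that same library called 1 subunit gene and 141 genes in all higher, and 0 and 1 lower. A fit of the YEPD libraries alone called 0 subunit genes in either direction, beside 0.838% of all tested genes higher and 0% lower. The median log2 change of the subunit genes was 0.18, beside -0.00 for all tested genes. Groups did not overlap in 10 subunit genes that were higher in every ADPRC library (15.2% of all tested genes) and in 7 that were lower (17%).

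RPA12 had 94.5, 112 and 102 normalized counts in YEPD mock replicates 1, 2 and 3 and 256 (unnumbered), 263 (replicate 2) and 155 (replicate 3) in ADPRC libraries. RPC10 had 33.7, 27.1 and 52.9 in mock and 70.2, 112 and 58.8 in ADPRC libraries, in the same order. The log2 changes were 1.08 ± 0.19 (SE) for RPA12 and 1.07 ± 0.24 for RPC10, with limma adjusted p of 0.00439 and 0.0199. All ADPRC libraries lay above all mock libraries, but ADPRC replicate 3 was much nearer to them than the other two.

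RPB9 had 57.1, 53.2 and 46.5 normalized counts in YEPD mock and 88.5, 151 and 69.0 in ADPRC libraries (log2 change 0.89 ± 0.22 SE, limma adjusted p = 0.0317). RPO26 had 249, 247 and 217 in mock and 333, 557 and 301 in ADPRC libraries (0.69 ± 0.17, limma adjusted p = 0.0356). Replicate 2 of the ADPRC group was the highest library in all 4 genes that rose, by the widest margin in RPB9, RPO26 and RPC10. RPA12 alone passed whichever library was left out. RPC10 failed without YEPD mock replicate 1 or 2 (limma adjusted p = 0.0934 and 0.106), RPB9 without minimal ADPRC replicate 1 or 2 or any YEPD mock library (0.0531 to 0.115), and RPO26 without any minimal library or any YEPD mock library (0.0541 to 0.129). Without YEPD ADPRC replicate 2, 5 genes rose: RPA12 (0.95), RPC10 (0.80), RPB9 (0.58), RPB7 (0.49) and RPO26 (0.42), beside 6.19% of all tested genes.

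The large subunits ran in the same direction as in minimal medium without passing the test in YEPD. RPA190 had 2806, 2596 and 2624 normalized counts in mock and 2202, 1398 and 2451 in ADPRC libraries, and RPO21 had 4433, 4452 and 4303 in mock and 3776, 2254 and 4030 in ADPRC libraries. RPO31 had 1041, 970 and 965 in mock and 826, 549 and 911 in ADPRC libraries. In all 3 genes replicate 2 was the lowest library and replicate 3 was close to mock. The log2 changes were -0.45 for RPA190, -0.44 for RPO21 and -0.41 for RPO31 (limma adjusted p = 0.111, 0.135 and 0.111). RPB2 (-0.54, 0.109), RET1 (-0.42, 0.113) and RPA135 (-0.18, 0.29) did not pass either. Without YEPD ADPRC replicate 3, 5 of these genes fell, namely RPA190 (-0.61), RPO21 (-0.59), RPB2 (-0.71), RPO31 (-0.56) and RET1 (-0.56), and 7 subunit genes rose, with RPA14 (0.68), RPB3 (0.49) and RPC40 (0.44) added. The gain was general, since 618 of 5480 tested genes rose (11.3%) and 493 fell (9.0%) in that fit.

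The change after ADPRC was also compared between genes of different length. The subunit genes were divided by length, with introns counted, into 10 short (under 500 bases), 14 middle and 7 long (over 1500 bases). RPC17 at 486 and RPB7 at 516 bases lay on either side of the first limit, and RPC53 at 1269 and RPC82 at 1965 bases on either side of the second. RPO26, which rose in both media, was placed in the middle class at 544 bases, and its class without introns was not examined. In minimal medium the median log2 change after ADPRC was 0.48 in the short class (5 rose, 0 fell), 0.24 in the middle class (5 rose, 0 fell) and -0.53 in the long class (0 rose, 6 fell). Over all tested genes the same classes had medians of 0.51, 0.19 and -0.28, with 35.7% of short and 20% of middle genes called higher and 31.3% of long genes called lower. In YEPD the medians of the subunit genes were 0.43, 0.19 and -0.42 (3, 1 and 0 rose, 0 fell), beside 0.43, 0.13 and -0.21 over all tested genes, of which 15.4%, 6.65% and 0.23% rose. The long subunit genes were longer than long genes at large, with a median of 3675 against 2145 bases.

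The log2 change of short minus that of long subunit genes was 1.00 in minimal medium and 0.85 in YEPD, beside 0.78 and 0.64 over all tested genes. By single ADPRC library against the mean of the mock libraries, it was 0.99, 1.22 and 0.90 in minimal replicates 1, 2 and 3, and 0.72 (unnumbered), 1.40 (replicate 2) and 0.53 (replicate 3) in YEPD. Once the trend of each library against length had been removed by loess, RPB2 was the 1 catalytic subunit still called lower (-0.30, limma adjusted p = 0.0266), and RPA190 and RPA135 turned to 0.09 and 0.10. The genes still higher were RPB9 (0.73, limma adjusted p = 0.0064), RPA12 (0.70, 0.0117), RPO26 (0.64, 0.00138) and RPC40 (0.43, 0.0136). A pair of short genes that had not moved became lower than their length class, RPB11 (-0.67, limma adjusted p = 0.019) and RPB8 (-0.58, 0.0441). In YEPD, RPA12 (0.63, limma adjusted p = 0.0484) was the 1 subunit gene left.

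RPB9 and RPB11 of polymerase II illustrate how short genes differed among themselves, since they are 369 and 363 bases long. RPB11 had 114, 94.1 and 113 normalized counts in minimal mock and 95.3, 89.6 and 104 in ADPRC libraries, with overlapping groups, while RPB9 rose. Per kilobase, RPB9 stood to RPB11 as 0.419 ± 0.0636 (SD, n = 3) in mock and 1.12 ± 0.192 in ADPRC libraries from minimal medium, and as 0.499 ± 0.106 and 0.851 ± 0.412 in YEPD. The ranges did not overlap in minimal medium and did overlap in YEPD.

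**Figure D3:**
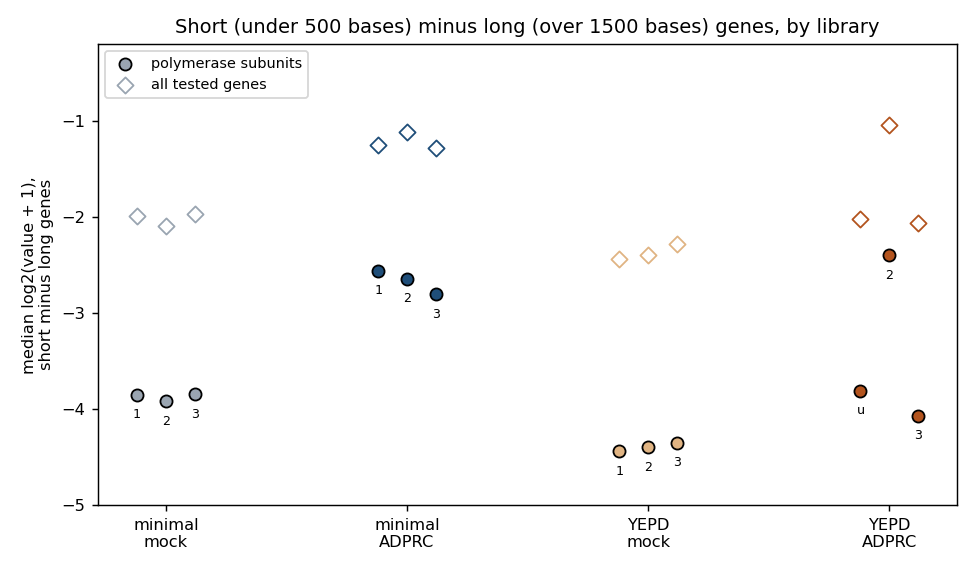
Median log2(value + 1) of short genes (under 500 bases) minus that of long genes (over 1500 bases) in each library, for the subunit genes (filled circles, numbered by replicate, u for unnumbered) and for all tested genes (open diamonds). In minimal medium all ADPRC libraries (-2.80 to -2.56 for the subunit genes) lie above all mock libraries (-3.92 to -3.85), and in YEPD replicate 2 (-2.40) lies far above the unnumbered library (-3.80) and replicate 3 (-4.07).

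Whether the change after ADPRC differed between media was tested directly. It did so in 0 of 31 subunit genes and in 0% of all 5490 tested genes (limma, adjusted p under 0.05; edgeR also called 0), and 2 subunit genes and 462 genes in all had an unadjusted p under 0.05. Those 2 were RPC11, with a difference of 0.90 (95% interval 0.07 to 1.73), and RPA14, with -0.67 (-1.26 to -0.08). RPC11 had 35.5, 31.1 and 36.2 normalized counts in YEPD mock and 34.6, 53.1 and 23.8 in ADPRC libraries, so its YEPD ADPRC libraries lay on both sides of mock. For RPA12, which rose in both media, the difference was 0.13 (-0.44 to 0.71). This count rested on YEPD ADPRC replicate 2: without it, 5 subunit genes were called higher in minimal medium than in YEPD, namely RPC11 (1.19), RPB10 (0.94), RPB9 (0.67), RPO26 (0.65) and RPC40 (0.47). A further 5 were called lower, namely RPB2 (-0.55), RPO21 (-0.53), RPO31 (-0.49), RPA190 (-0.30) and RPA135 (-0.29), and in all 492 and 555 of 5475 tested genes were called. In that library 64.8% of reads fell on frames within the ribosomal DNA, against 78.3% and 79.5% in the other two of its group, and the part of this difference in the results was not tested.

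To see how the subunit transcripts on the beads differed with growth medium, minimal and YEPD libraries were compared in mock and in ADPRC samples. The levels in total RNA were not measured. In mock libraries 3 of 31 subunit genes were higher in minimal medium, against 7.29% of all tested genes, and 9 were lower, against 22.4%, but with the same total per library all 31 were higher (91.1% of all tested genes) and none lower (2.95%). In ADPRC libraries 3 were higher, against 7.05%, and 8 lower, against 25.7%, and with the same total per library again all 31 were higher (94.6% of all tested genes). The same total moved the median of all tested genes from -0.20 to 1.03 in mock and from -0.19 to 1.28 in ADPRC libraries, so the difference of each gene from that median is given below beside its log2 change. By TMM and edgeR, under which the all-gene median lay near 0, 1 and 0 subunit genes were lower in minimal mock libraries (6.59% and 5.99% of all tested genes) and 2 and 2 in minimal ADPRC libraries (7.21% and 8.78%). The median of the subunit genes was -0.25 in mock and -0.27 in ADPRC libraries, close to that of all tested genes. Groups did not overlap in 3 genes that were higher and 16 that were lower in mock libraries (13.6% and 41.1% of all tested genes), and in 3 and 12 in ADPRC libraries (8.38% and 31.8%). In bulk RNA, fewer cells of a kind and less RNA per cell cannot be told apart. The sources used here do not say whether reads of both media were counted in the same way, and since the YLR154W frames differed so widely between media, growth and counting cannot be told apart in any of these comparisons.

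As normalized by the authors, 5 of the 7 polymerase I subunits were called lower in minimal mock libraries, beside 22.4% of all tested genes. The counts were 1 of 7 for polymerase II, 2 of 10 for polymerase III and 1 of the 5 common subunits. None of the polymerase I calls held by TMM or edgeR, and all turned positive with the same total per library. RPA49, a TFIIF-like subunit, had 313, 341 and 294 normalized counts in minimal mock and 516, 489 and 457 in YEPD mock libraries. Its partner RPA34 had 148, 131 and 122 in minimal and 201, 199 and 182 in YEPD mock libraries. RPA190 showed the widest gap of the polymerase I genes, from the minimal mock values given above to 2806, 2596 and 2624 in YEPD. These groups did not overlap. The log2 changes, as normalized by the authors, were -0.67 ± 0.16 (SE) for RPA190, -0.63 ± 0.12 for RPA49, -0.54 for RPA34, -0.33 for RPA135 and -0.31 for RPA43, with limma adjusted p of 0.00727, 0.00184, 0.00458, 0.0407 and 0.0413. Relative to the median of all tested genes they lay at -0.47, -0.43, -0.34, -0.13 and -0.11, and at -0.46, -0.42, -0.33, -0.12 and -0.10 with the same total per library. RPA135 had 2434, 2300 and 2396 and RPA43 279, 254 and 274 normalized counts in YEPD mock libraries.

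Outside polymerase I the lowest in minimal mock libraries was RPC25, a polymerase III stalk subunit, with 47.0, 52.7 and 48.3 normalized counts against 77.6, 81.3 and 83.9 in YEPD mock libraries. Its log2 change of -0.70 (limma adjusted p = 0.00169), or -0.51 relative to the median of all tested genes, became 0.52 with the same total per library. RPB4 had 198, 210 and 239 in YEPD mock libraries, a log2 change of -0.53 (limma adjusted p = 0.0044; 0.71 with the same total). RET1 (-0.50, limma adjusted p = 0.0265; 0.75 with the same total) and RPB5 (-0.35, 0.0255; 0.89) were the others, and RPB4, RET1 and RPB5 lay at -0.33, -0.30 and -0.16 relative to the same median. In mock libraries 4 of the 9 calls were lost without single libraries. RET1 was lost without minimal mock replicate 1 or 3 or YEPD mock replicate 1 or 2 (limma adjusted p from 0.0541 to 0.107), and RPB5 without replicate 2 or 3 of minimal mock or 1 or 3 of YEPD mock (0.0506 to 0.12). RPA43 was lost without any minimal library or any YEPD mock library (limma adjusted p from 0.051 to 0.125), and RPA135 without any of these except minimal ADPRC replicate 3 (0.0516 to 0.12).

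In ADPRC libraries the genes lower in minimal medium were RPA190 (-0.72), RPO31 (-0.68), RET1 (-0.61), RPO21 (-0.54), RPA135 (-0.52), RPC25 (-0.48), RPA49 (-0.47) and RPA34 (-0.39), and with the same total per library each of these turned positive (0.76 to 1.09). Relative to the median of all tested genes they ranged from -0.53 (RPA190) to -0.20 (RPA34). These comparisons share the libraries used above for the change after ADPRC, so the low values of the long genes in minimal ADPRC libraries enter both. The calls of RPA34, RPA49, RPC25 and RPO21 were lost without single libraries. RPA34 was lost without minimal ADPRC replicate 1 or 3 or the unnumbered library or replicate 3 of YEPD ADPRC (limma adjusted p from 0.063 to 0.111), and RPA49 without minimal ADPRC replicate 2 or the unnumbered library (0.0532 and 0.0562). RPC25 was lost without minimal ADPRC replicate 2 or 3 or YEPD ADPRC replicate 3 (0.0541 to 0.0933), and RPO21 without any minimal ADPRC library or the unnumbered library or replicate 3 of YEPD ADPRC (0.0575 to 0.138). Without YEPD ADPRC replicate 2 the counts rose to 9 higher and 13 lower, RPB2 (-0.80) among the latter, beside 18.5% and 39.2% of all tested genes in that fit.

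The genes higher in minimal medium under every normalization tried were RPC19, RPB3 and RPC53. RPC19, the assembly partner of RPC40, had 136, 131 and 127 normalized counts in minimal mock and 32.7, 35.1 and 28.4 in YEPD mock libraries, and 136, 172 and 137 and 41.4, 37.1 and 43.0 in the corresponding ADPRC libraries. RPB3, the polymerase II assembly subunit, had 141, 170 and 143 in minimal mock and 73.0, 65.2 and 80.1 in YEPD mock libraries. RPC53, a TFIIF-like subunit of polymerase III, had 217, 197 and 156 in minimal mock and 111, 114 and 128 in YEPD mock libraries. No minimal library of these genes fell within the YEPD range of the same treatment. The log2 changes in mock libraries were 2.00 ± 0.14 (SE) for RPC19, 1.05 ± 0.13 for RPB3 and 0.67 for RPC53 (limma adjusted p = 7.26e-08, 2.71e-05 and 0.00363), and in ADPRC libraries 1.84, 0.82 and 0.86 (1.53e-07, 0.000268 and 0.000626). RPC40 had a log2 change of -0.19 in mock libraries and 0.08 in ADPRC libraries and did not pass in either.

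All 3 of these genes belong to a set of 7 subunit genes (RPB3, RPB8, RPC19, RPC53, RPC34, RPC31 and RPC25) that have next to them, on the opposite strand by systematic name, an identifier of the table without a RefSeq entry. RPC25, of the same set, was called lower in minimal medium in both mock and ADPRC libraries. Among the 24 subunit genes without such a neighbour, 0 were higher and 8 were lower in minimal mock libraries. Over all tested genes in RefSeq, 24.6% of 849 with such a neighbour were higher in minimal mock libraries, against 3.98% of 4574 without, and in ADPRC libraries the shares were 23.9% and 3.89%. The shares called lower were 14.4% and 23.5% in mock and 18.5% and 26.7% in ADPRC libraries. The neighbours themselves had at most 7.92 normalized counts in any library, and YNL114C, beside RPC19, had at most 2.13. Whether these neighbours overlap the genes was not examined. The use of strand in counting is not given in the sources used here, so reads of a gene and of an overlapping neighbour cannot be told apart. The values of all 7 genes, RPC19, RPB3, RPC53 and RPC25 among them, are uncertain for that reason. The part of such neighbours in the difference between media was not tested.

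**Figure D4:**
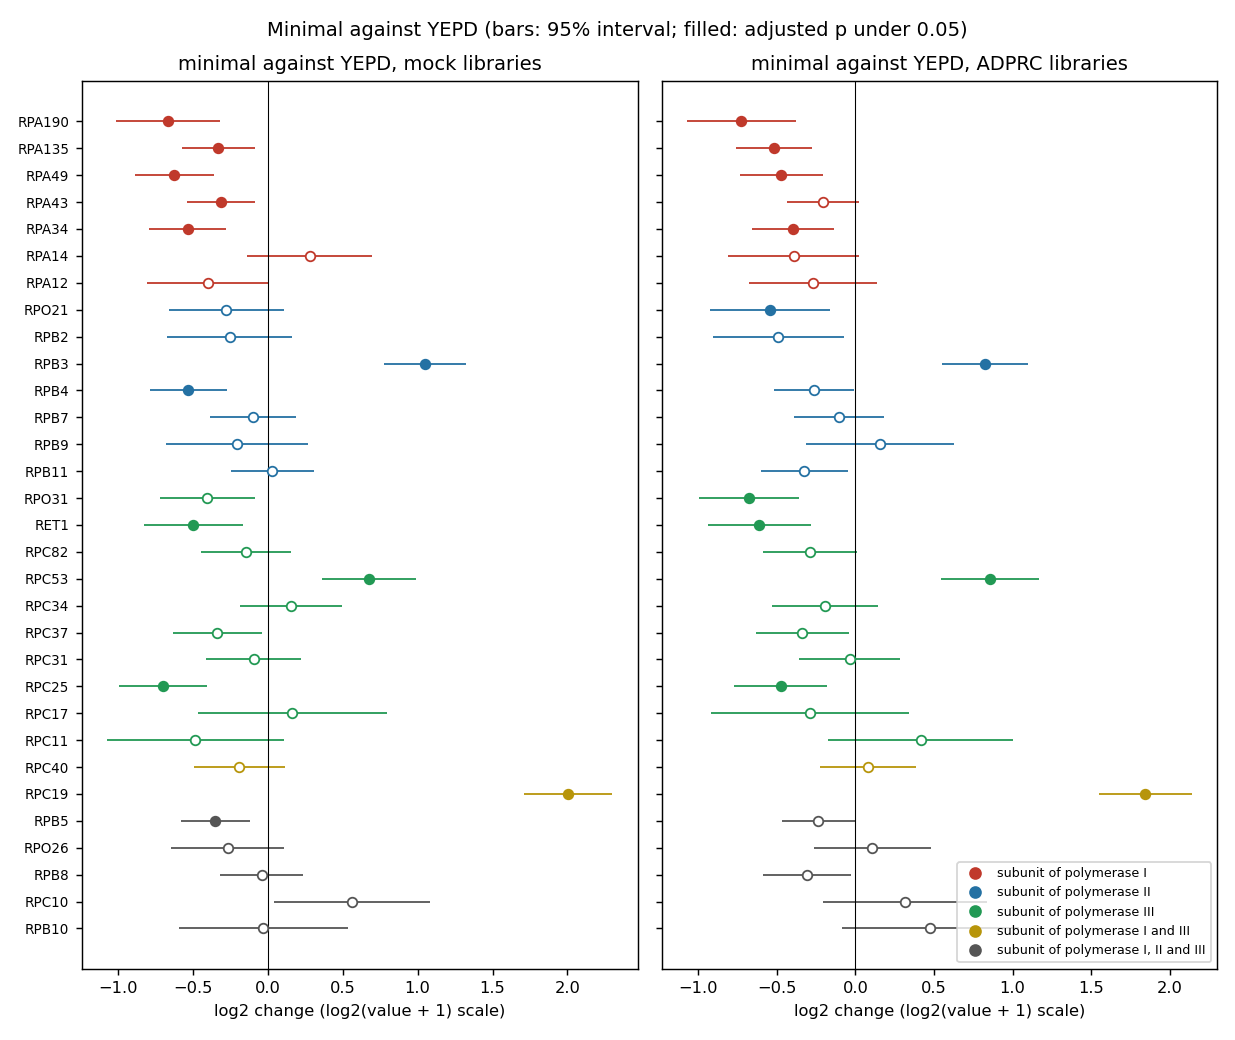
Log2 change in minimal against YEPD medium, as normalized by the authors (horizontal axis; bars are 95% intervals, filled points passed the test, colour marks the enzyme), for the 31 subunit genes in mock libraries (left) and ADPRC libraries (right). RPC19, RPB3 and RPC53 lie to the right of 0 in both panels. Most genes of polymerase I, of polymerase II and of polymerase III lie to the left. So does the median of all tested genes (-0.20 in mock and -0.19 in ADPRC libraries). With the same total per library all 31 genes lie to the right of 0, and 91.1% (mock) and 94.6% (ADPRC) of all tested genes are called higher.

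Initiation and related factors of the polymerases were examined as the other genes of the pathway: 8 for polymerase I, 20 for polymerase II and 9 for polymerase III, all 37 tested. In minimal medium 4 of 37 rose after ADPRC and 2 fell, with a median log2 change of -0.03, beside 14.2% and 14.6% of all tested genes. With the same total per library 16 rose and 0 fell, beside 45.3% and 0.893%. Among the factors past the threshold, the largest changes upward were in SPT15 (0.73 ± 0.12 SE), the TATA-binding protein used by all 3 enzymes, TOA2 (0.70 ± 0.19), the small TFIIA subunit, and RRN10 (0.66 ± 0.23), of the upstream activating factor of polymerase I (limma adjusted p = 0.00248, 0.0176 and 0.0475). The low genes TFB5 (mean 8.98 in mock, 20.1 in ADPRC libraries) and UAF30 (14.3 and 25.8) rose by more but were not called. The fourth was TFG2 of TFIIF (0.52). TFC3 (-0.69 ± 0.21), the largest TFIIIC subunit, and SSL2 (-0.51 ± 0.13), a TFIIH helicase, fell (limma adjusted p = 0.027 and 0.0133), but neither passed with the same total per library. Of these 6, SPT15 alone passed without any single library: TOA2 was lost without minimal mock replicate 1 or 2 or minimal ADPRC replicate 3 (limma adjusted p from 0.0591 to 0.0707), TFC3 without any minimal library (0.0536 to 0.0789), and SSL2 without minimal ADPRC replicate 2 (0.0587). TFG2 was lost without minimal mock replicate 1 or minimal ADPRC replicate 1 or 2 (limma adjusted p from 0.0529 to 0.0682), and RRN10 without any minimal library, any YEPD mock library or the unnumbered library (0.0523 to 0.135).

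In YEPD 1 factor rose and 1 fell after ADPRC, beside 4.92% and 0.546% of all tested genes. No factor rose by TMM, by edgeR or in the fit of the YEPD libraries alone (2.37%, 2.39% and 0.838% of all tested genes), and 4 rose and 3 fell without YEPD ADPRC replicate 3 (2 and 1 without replicate 2). Over all tested genes 11.3% rose and 9.0% fell without replicate 3, and 6.19% and 1.41% without replicate 2. TOA2 had 54.2, 62.2 and 80.1 normalized counts in mock and 108, 129 and 104 in ADPRC libraries (0.80 ± 0.19 SE, limma adjusted p = 0.0242), and TFC1, a TFIIIC subunit, fell (-0.75 ± 0.17, limma adjusted p = 0.0183). TOA2 was lost without YEPD mock replicate 1 or 2 (limma adjusted p = 0.128 and 0.0988) and TFC1 without YEPD mock replicate 1 or 3 (0.0632 and 0.0815). The change after ADPRC was called different between media in 0 of the 37 factors, but without YEPD ADPRC replicate 2 in 2 that were higher and 6 that were lower in minimal medium, beside 8.99% and 10.1% of all tested genes.

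Between media, 1 factor was higher and 7 were lower in minimal mock libraries, and 2 were higher and 10 lower in minimal ADPRC libraries, but with the same total per library 35 and 37 were higher and none was lower. The all-gene shares were 7.29% and 22.4% in mock and 7.05% and 25.7% in ADPRC libraries. With the same total per library 91.1% and 94.6% of all tested genes were higher. By quantile normalization, TMM and edgeR 1, 1 and 0 factors were lower in mock (9.95%, 6.59% and 5.99% of all tested genes) and 2, 1 and 1 in ADPRC libraries (11.2%, 7.21% and 8.78%). Without YEPD ADPRC replicate 2 the lower factors numbered 15 and 18, beside 37.8% and 39.2% of all tested genes. SPT15 was the one higher in mock libraries, with 293, 294 and 295 normalized counts in minimal and 87.9, 97.3 and 107 in YEPD mock libraries (log2 change 1.59 ± 0.12 SE, limma adjusted p = 2.39e-07). Among the factors called lower, the lowest in mock libraries were TFB4 (-0.76; 0.46 with the same total), of TFIIH, RRN6 (-0.51; 0.73), of the polymerase I core factor, and MAF1 (-0.46; 0.77), the repressor of polymerase III. In ADPRC libraries SPT15 (2.31) and TFC1 (0.58) were the higher ones, and RRN7 (-0.70; 0.78 with the same total), SSL2 (-0.64; 0.85) and RRN6 (-0.63; 0.86) the lowest. SPT15 and TFC1, like the 3 subunit genes higher in minimal medium, have an opposite-strand neighbour without a RefSeq entry. So do RRN7, which was among the lowest in ADPRC libraries, and DST1 and RAD3.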

How the data were processed

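Illumina libraries of streptavidin-bound RNA from BY4742 (4 groups of 3) are in 1 deposited table with 1 column per library; columns left unused numbered 0. Its values are a signal, normalized counts that the authors deposited after scaling each gene's reads by a library factor (per the file headers); 100% were whole multiples of their library's smallest step (tolerance 0.01 reads). YEPD mock replicate 2, with a step of 1.00, was left out of edgeR and TMM, a choice made after seeing the data. Its values were whole multiples of that step too, and YEPD mock was 1 library short in both analyses. The submitters' processing notes name DESeq, HTSeq, Bowtie, Trimmomatic and FastQC; which versions, genome build and strand setting were used is not given in the sources used here.

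RefSeq R64 gave symbols and coding lengths (5919 of 6607 identifiers matched), and introns count toward a length. Neighbours were found by systematic name among the identifiers without a RefSeq entry. Genes averaging at least 10 were kept (5490), log2(value + 1) was taken, and 4 group means were fitted with limma 3.58.1 in R 4.3.3 (trend, robust) over all 12 libraries. P-values are two-sided and Benjamini-Hochberg adjusted over all tested genes in each of 5 contrasts, with a threshold of 0.05. EdgeR 4.0.16 (quasi-likelihood) on recovered reads called 614 genes up and 597 down with ADPRC in minimal medium, and 131 and 3 in YEPD. The fit was tested on simulated data.

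The subunits, their classes and the list of 37 initiation and related factors were chosen with earlier results of these data known. Values in every library are given for subunits past the threshold in either ADPRC comparison or in the difference between media, for the 2 largest subunits of each enzyme, and for the 5 largest changes in each direction between media; of the factors, up to 3 per direction and comparison are named, and any further one named was chosen after its values were seen. A gene at 0 reads could still hold up to 3 reads, or 1.60 to 5.42 normalized counts depending on the library; such floors cover counting error only.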

Additional observations from a re-analysis of the deposited data

How the results depend on the processing

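Another pseudocount (8), no filter, a mean of at least 50, and no trend or robust estimation left the counts of calls within 1.5 times, as did every setting not named here. With the same total per library, 20 subunit genes rose and 0 fell after ADPRC in minimal medium (45.3% and 0.893% of all tested genes), and 31 were higher and 0 lower in minimal medium in mock and in ADPRC libraries. Of all tested genes 91.1% were higher in mock and 94.6% in ADPRC libraries. RPA135 after ADPRC in minimal medium then turned to 0.065. Minimal against YEPD turned positive in ADPRC libraries for RPA190 (0.76), RPO31 (0.81), RET1 (0.88), RPO21 (0.95), RPA135 (0.97), RPC25 (0.99), RPA49 (1.02) and RPA34 (1.09), and in mock libraries for RPC25 (0.52), RPA190 (0.58), RPA49 (0.62), RPA34 (0.70), RPB4 (0.71), RET1 (0.75), RPB5 (0.89), RPA135 (0.91) and RPA43 (0.93). Genes lower in minimal mock and ADPRC libraries numbered 5 and 4 by quantile normalization (9.95% and 11.2% of all tested genes), 1 and 2 by TMM (6.59% and 7.21%), 0 and 2 by edgeR (5.99% and 8.78%), 16 and 1 in fits of only the groups compared (35.8% and 12.4%), and 5 and 1 with the length trend removed (10.9% and 9.79%). Genes that rose in YEPD numbered 1 by TMM and by edgeR (2.37% and 2.39% of all tested genes), 0 in the fit of only the groups compared (0.838%) and 1 with the length trend removed (2.56%). Removing the length trend also left 4 that rose and 3 that fell in minimal medium, took the short minus long difference to -0.0071 in minimal medium and 0.029 in YEPD, by construction, and reversed RPA190 (0.094), RPA135 (0.097) and RPB7 (-0.057) after ADPRC in minimal medium and RPA135 (0.0072) between media in mock libraries. Otherwise the cause was not tested.

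Same-numbered libraries were not paired by their labels, and their deviations from the group means correlated at -0.0233, -0.0856 and -0.0595 in minimal medium and at -0.0356 and -0.146 in YEPD, at -0.0478, -0.0221 and -0.0137 between mock libraries, and at 0.317 and 0.216 between ADPRC libraries. With the replicate number as a block, 4 genes rose and 3 fell in minimal medium (8.58% and 6.36% of all tested genes), 0 rose in YEPD (0.474%), and 16 and 0 were lower in minimal mock and ADPRC libraries (35.5% and 5.70%).

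Leaving out 1 library at a time gave 4 to 12 genes that rose and 1 to 6 that fell in minimal medium, 1 to 7 and 0 to 5 in YEPD, and 0 to 5 in each direction for the difference between media. Between media it gave 3 to 4 higher and 5 to 16 lower in mock, and 3 to 9 and 5 to 13 in ADPRC libraries. Short minus long ran from 0.90 to 1.12 in minimal medium and from 0.68 to 1.04 in YEPD. Of the calls, 5 of 16 in minimal medium, 1 of 4 in YEPD, 8 of 12 between mock and 7 of 11 between ADPRC libraries held in every such fit.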
